A study of Macaca fascicularis and Mus musculus with 42 samples.

Results

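NODAL, GDF3, TDGF1, FOXH1, CER1 and LEFTY1 are genes of the NODAL pathway, and their rows were taken by symbol. All 6 were found among the 26018 entries of the monkey table, and their 6 mouse orthologs among the 34896 genes of the mouse table. NODAL and GDF3 are secreted ligands of the TGF-β family. They bind activin receptors together with the co-receptor TDGF1 (Cripto), which leads to phosphorylation of SMAD2 and SMAD3, and the transcription factor FOXH1 brings these SMADs to target genes. CER1 and LEFTY1 are secreted antagonists that are themselves induced by the pathway, and in the embryo the pathway keeps the epiblast pluripotent and directs mesoderm and endoderm formation.

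The levels come from 42 bulk libraries of transcript 3′ ends, 38 from cynomolgus monkey (Macaca fascicularis) and 4 from mouse, in RPM (reads per 1e6 reads of the library). The study followed embryonic stem cells (ESC) through induction to PGCLC (primordial germ cell-like cells), which model the precursors of eggs and sperm in culture. Reporter lines carried the transgenes Blimp1-tdTomato, a reporter for PRDM1, and TFAP2C-EGFP, and of the 24 reporter libraries used here 23 came from line 656BTAG42 and 1, reporter ESC library 2, from line 656BTAG63. All induced monkey cells received BMP4, SCF, EGF, LIF and Y27632, either in Advanced RPMI1640 with B27 (aRB27) or in GMEM with the serum replacement KSR (GK15). They were sorted as positive for both reporters (BTAG), for the PRDM1 reporter alone (BT) or at a middle level of the TFAP2C reporter (AG). The groups were 4 reporter ESC libraries, 2, 2 and 3 aRB27 BTAG libraries on days 2, 4 and 6, and 1, 1, 2, 2 and 2 GK15 BTAG libraries on days 2, 4, 6, 8 and 10. There were also 1 and 2 aRB27 BT libraries on days 2 and 4, 1 aRB27 AG library on day 2 and 1 GK15 AG library on day 4. ESC without transgenes gave 5 libraries, 2 of line CMK6 and 1 each of lines 656, 681F and 22, and all monkey ESC were grown in the medium labelled AITS+IF20. The mouse libraries, 2 on day 4 and 2 on day 6, came from line R8 with the transgenes Blimp1-membraneVenus and Dppa3-ECFP, taken through an epiblast-like state before induction in GK15.

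Another 9 reporter libraries, whose labels were in doubt, were left out of every main value. In 6 of these 9, PRDM1 contradicted the label, with 145 to 253 RPM in 3 libraries labelled ESC or AG and under 50 RPM in 3 labelled as sorted for its reporter. The other 3, also labelled as sorted for it, had 50 RPM or more of PRDM1, so PRDM1 did not contradict their labels. In the libraries used, the 18 selected on the PRDM1 reporter had 85.1 to 318 RPM of PRDM1 and the 6 ESC and AG libraries 0 to 11.1 RPM. As PRDM1 was among the reasons for leaving libraries out, this split is no separate check of the labels. SOX17, a regulator of primate germ cell fate, had group means of 646 to 1190 RPM in BTAG cells and 1.71 RPM in reporter ESC. It was also high in BT cells, with 475 RPM on day 2 and 716 to 925 RPM on day 4. The summed level of 5 germ cell markers, SOX17 among them, was 973 to 1049 RPM in day 4 BT cells. TFAP2C was 2.53 and 3.48 RPM in day 4 BT cells and had a mean of at least 358 RPM in every BTAG group. As these gates were set on the TFAP2C reporter, that split is no separate check of cell identity. The summed level of 6 endoderm markers was 813 to 1271 RPM in day 4 BT cells, 1960 RPM in the day 2 BT library and 73.7 to 84.7 RPM in day 4 aRB27 BTAG cells, in which no marker was at 0 throughout. The summed level of 5 mesoderm and amnion markers was 3402 RPM in the aRB27 AG library and 3106 RPM in the GK15 AG library, against 153 to 645 RPM in all BTAG libraries. Depth was 1.08 to 7.46 M reads in monkey and 2.26 to 2.48 M reads in mouse (M, 1e6), so that 1 read stood for 0.134 to 0.929 RPM. Apart from the named lines, the labels do not say which libraries of a group are different cultures. P-values therefore measure the spread between these libraries, which may be technical, and in bulk RNA fewer expressing cells cannot be told apart from less RNA per cell.

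**Figure D1:**
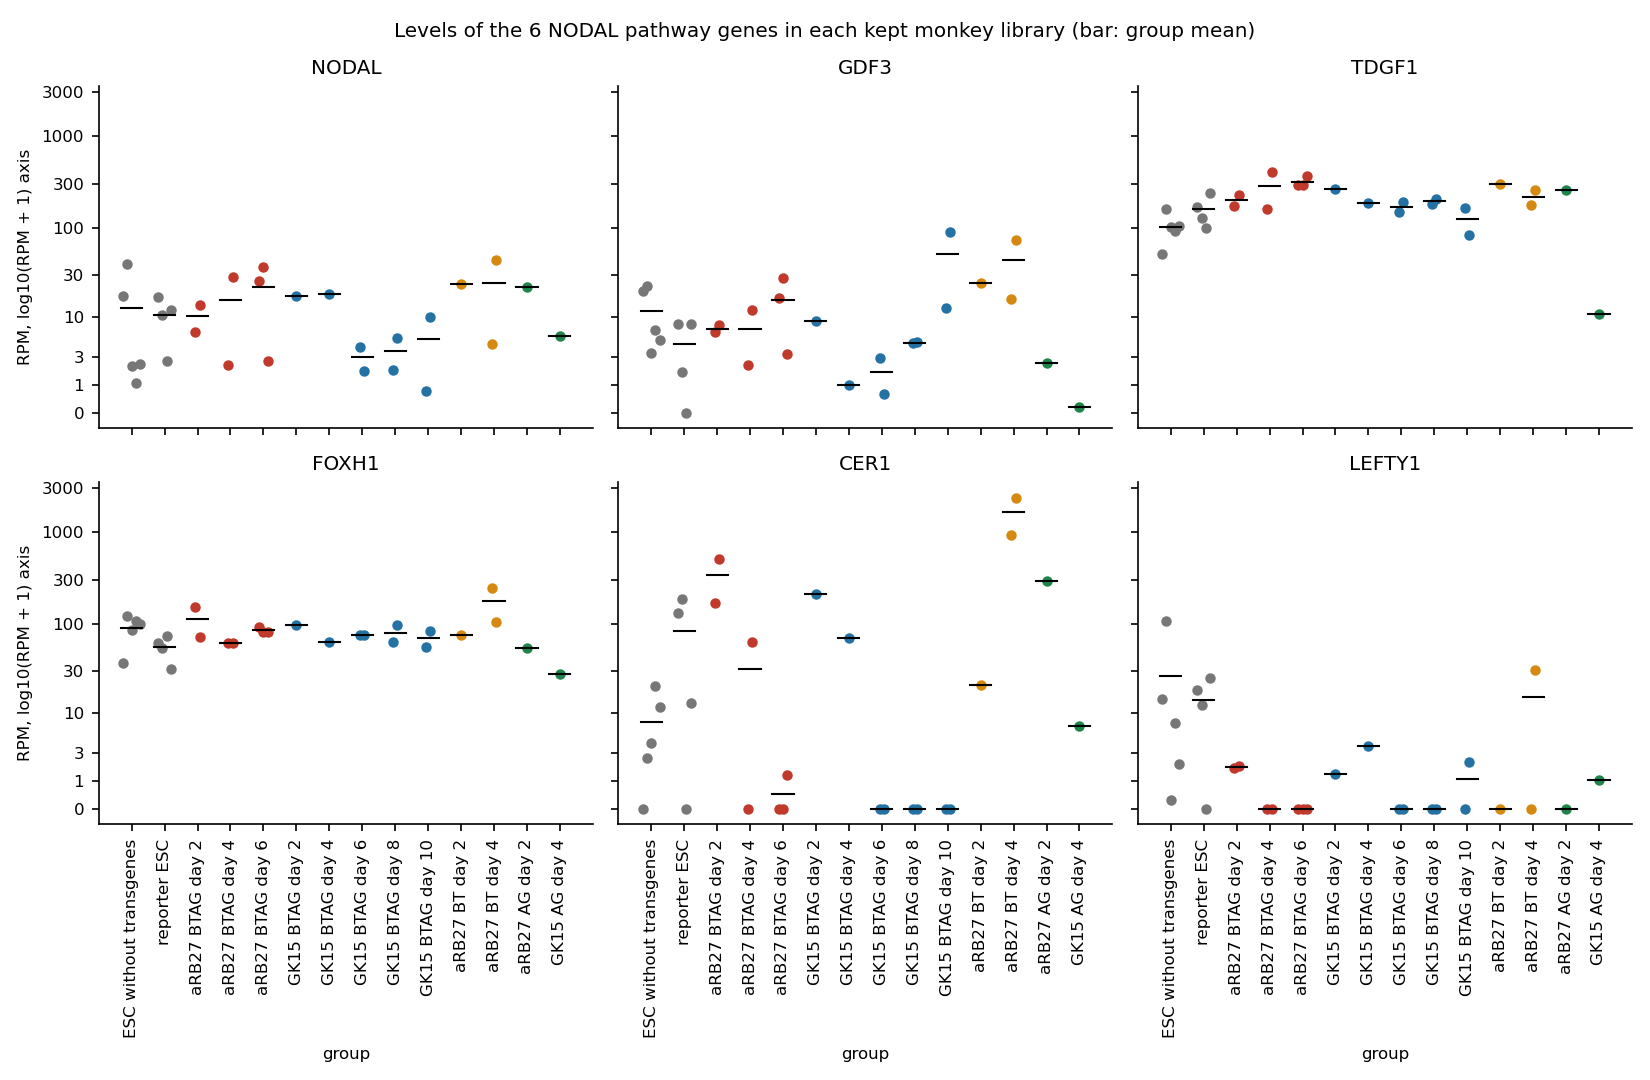
Level of each of the 6 genes in every monkey library used (dots, 1 library each, in RPM on a log10(RPM + 1) axis) by group, with the group mean as a bar. Grey dots are ESC, red aRB27 BTAG, blue GK15 BTAG, orange BT and green AG cells. CER1 reaches 2363 RPM in a day 4 BT library and is 0 in all 6 GK15 BTAG libraries of days 6, 8 and 10, while TDGF1 and FOXH1 stay above 10 RPM in every library.

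NODAL was at most 44.1 RPM in every library, and libraries of 1 group often differed several-fold. In reporter ESC it was 16.8, 10.4, 2.64 and 11.8 RPM. In aRB27 BTAG cells it was 6.43 and 13.7 RPM on day 2, 2.30 and 28.6 RPM on day 4, and 25.8, 36.9 and 2.65 RPM on day 6. Day 4 and day 6 of that series thus each held a library near 2 RPM beside libraries above 25 RPM. In GK15 BTAG cells NODAL was 17.2 RPM on day 2 and 18.5 RPM on day 4, then 4.16 and 1.81 RPM on day 6, 1.86 and 5.49 RPM on day 8, and 0.69 and 9.80 RPM on day 10. All 6 of these later libraries were below the day 2 and day 4 libraries of the same medium. BT cells had 23.6 RPM on day 2 and 4.48 and 44.1 RPM on day 4, and AG cells 22.3 RPM (aRB27, day 2) and 5.68 RPM (GK15, day 4). In none of the 10 monkey comparisons was NODAL called, with the lowest adjusted p at 0.254 (limma, GK15 days 8 and 10 against ESC, log2 difference −1.20 ± 0.84 SE). Ordered by mean, the day 4 BT cells stood highest at 24.3 RPM and the GK15 day 6 cells lowest at 2.98 RPM. Of the 13 pairs of neighbours in that order, 10 overlapped, and in the other 3 at least one side was a group of 1 library.

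GDF3, the other ligand, had its highest group means in GK15 BTAG cells of day 10 and in BT cells of day 4. Reporter ESC had 8.09, 1.73, 0 and 8.08 RPM. aRB27 BTAG cells had 6.43 and 7.80 RPM on day 2, 2.30 and 11.8 RPM on day 4, and 16.5, 27.6 and 3.31 RPM on day 6, where the difference from ESC, 1.74 ± 0.83, was not called (limma, adjusted p = 0.112). It was 2.53 (adjusted p = 0.0326) without library 4 and 1.09 (adjusted p = 0.320) without reporter ESC library 3. GK15 BTAG cells had 8.83 RPM in the day 2 library and 1.00 RPM in the day 4 library, stood at 2.91 and 0.60 RPM on day 6 and 4.64 and 4.83 RPM on day 8, and reached 12.5 and 89.7 RPM on day 10. The 2 day 10 libraries differed from each other more than day 8 differed from day 6. BT cells had 24.3 RPM on day 2 and 15.9 and 72.7 RPM on day 4, all above the 8.09 RPM that was the highest in reporter ESC. GDF3 thus entered the tests, which need 10 RPM in 2 libraries, only through induced cells. Its higher level in BT cells than in ESC follows in part from that. The day 4 BT difference from ESC was 3.19 ± 0.95 (log2, SE) with an adjusted p of 0.0235 (limma). This call was lost without day 4 BT library 2 (2.13, adjusted p = 0.343), without reporter ESC library 2 (3.02, adjusted p = 0.0507) and without reporter ESC library 3 (2.54, adjusted p = 0.0648). AG cells had 2.48 and 0.15 RPM, the latter resting on 1 read.

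TDGF1, the co-receptor, was above 50 RPM in every library but 1. Reporter ESC had 169, 127, 100.7 and 237 RPM, and ESC without transgenes 51.0, 159, 100.9, 92.8 and 106 RPM. aRB27 BTAG cells had 174 and 226 RPM on day 2, 162 and 407 RPM on day 4, and 292, 293 and 368 RPM on day 6. All 3 day 6 libraries lay above the 4 reporter ESC libraries, and TDGF1 rose by 1.06 ± 0.31 (log2, SE; limma, adjusted p = 0.0103). The difference dropped below the log2 threshold of 1 without aRB27 day 6 library 4 (0.95), reporter ESC library 2 (0.98) or reporter ESC library 3 (0.87). GK15 BTAG cells had 266 RPM on day 2, 189 RPM on day 4, 148 and 189 RPM on day 6, 184 and 205 RPM on day 8 and 164 and 82.96 RPM on day 10, a range that overlapped that of reporter ESC except for the day 2 library above it and 1 day 10 library below it. BT cells had 303 RPM on day 2 and 178 and 255 RPM on day 4. The AG libraries differed widely, with 260 RPM in aRB27 on day 2 and 10.6 RPM in GK15 on day 4, the lowest TDGF1 level in any library used.

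FOXH1 had the smallest ratio of highest to lowest level among the 6 genes, from 27.8 to 249 RPM over the 24 reporter libraries. Reporter ESC had 62.5, 55.2, 74.7 and 31.8 RPM. BTAG cells had 154 and 71.6 RPM (aRB27) and 96.7 RPM (GK15) on day 2, 62.2 and 62.3 RPM (aRB27) and 64.0 RPM (GK15) on day 4, and 93.1, 80.9 and 81.4 RPM (aRB27) and 76.6 and 75.9 RPM (GK15) on day 6. GK15 BTAG cells then had 63.1 and 96.5 RPM on day 8 and 56.1 and 84.5 RPM on day 10. Day 4 BT cells had 249 and 106 RPM, both above all ESC reporter and all day 4 BTAG libraries, while the day 2 BT library had 75.8 RPM. FOXH1 rose in day 4 BT cells by 1.58 ± 0.36 over reporter ESC (log2, SE; limma, adjusted p = 0.00361) and by 1.37 ± 0.41 over day 4 BTAG cells (adjusted p = 0.0261). Against ESC the call was lost without day 4 BT library 1 (0.97, adjusted p = 0.135). Against BTAG it was lost without either BTAG library (both 1.37, adjusted p = 0.113 without library 1 and 0.107 without library 2) or without day 4 BT library 1 (0.76, adjusted p = 0.345).

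CER1, the antagonist, had the widest range of the 6 genes, from 0 to 2363 RPM. Reporter ESC were split, with 131 and 190 RPM in the 2 libraries with the title code MS134 and 0 and 12.9 RPM in the 2 with the code MS162, and the labels do not say what the code stands for. On day 2 of induction CER1 stood at 171 and 508 RPM in aRB27 and at 212 RPM in GK15. On day 4 it stood at 0 and 63.5 RPM in aRB27 and at 70.2 RPM in GK15. From day 6 it was all but absent from BTAG cells, with 0, 0 and 1.32 RPM in aRB27 on day 6 and 0 in all 6 GK15 libraries of days 6, 8 and 10. These 6 libraries held 0 CER1 reads in 12.5 M, which allows up to 0.241 RPM at 3 reads over the group, so the mean of 297 ± 184 RPM (SD, n = 3) over the day 2 libraries of both media was at least 1235-fold higher, and at least 796-fold without aRB27 day 2 library 2. This bound covers counting error only.

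Day 4 BT cells were at the other end, with 935 and 2363 CER1 RPM, above every other library used. The day 2 BT library had 20.8 RPM, which was below all 3 day 2 BTAG libraries and below the day 2 AG library at 297 RPM. The GK15 AG library of day 4 had 6.87 RPM. In the order of group means the day 4 BT cells came highest, and their lowest library lay above the highest of the next group, the day 2 aRB27 BTAG cells. Reporter ESC overlapped their neighbour in the order, day 4 GK15 BTAG cells, and the day 6, 8 and 10 BTAG groups overlapped each other at or near 0.

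LEFTY1, the other antagonist, was present in ESC and nearly absent after induction. Reporter ESC had 18.4, 12.5, 0 and 25.3 RPM. BTAG cells had 1.75 and 1.95 RPM (aRB27) and 1.39 RPM (GK15) on day 2 and 3.83 RPM in the GK15 day 4 library. All 5 aRB27 libraries of days 4 and 6 and all 4 GK15 libraries of days 6 and 8 were at 0, and the 2 GK15 day 10 libraries had 0 and 2.26 RPM. Against the 14.1 ± 10.7 RPM (SD, n = 4) of reporter ESC, these 5 and 4 libraries were at least 41.8-fold and 45.4-fold lower, with 3 reads over each set as the floor. Outside ESC, LEFTY1 passed 10 RPM in a single reporter library, day 4 BT library 2 at 30.8 RPM, whereas BT library 1 of that day and the day 2 BT library were at 0. LEFTY1 therefore entered the tests mainly through its ESC level. The AG libraries had 0 and 1.05 RPM.

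Reporter ESC library 3 stood apart from the other reporter ESC in several of these genes at the same time. It was at 0 for GDF3, CER1 and LEFTY1 and lowest of the 4 for NODAL at 2.64 RPM, and the pathway target EOMES had 0.88 RPM there against 15.1 to 20.2 RPM in the other 3. FOXH1, at 74.7 RPM, was highest of the 4 in that library. Within aRB27 BTAG cells, day 6 library 4 had 2.65 NODAL RPM and 5.29 EOMES RPM and the other 2 day 6 libraries at least 25.8 and 27.5 RPM. Day 4 library 1 likewise had 2.30 NODAL RPM, 0 CER1 RPM and 12.1 EOMES RPM, and day 4 library 2 28.6, 63.5 and 67.3 RPM. Other pairs ran the other way: of the aRB27 day 2 libraries the one lower in NODAL and CER1 was higher in EOMES (138 against 116 RPM), and of the day 4 BT libraries the one lower in NODAL was higher in EOMES (739 against 636 RPM). Over the 24 reporter libraries, Pearson r of log2(RPM + 1) was 0.53 for CER1 with LEFTY1, 0.52 for NODAL with CER1 and 0.49 for NODAL with GDF3, and lowest at −0.22 for FOXH1 with LEFTY1. These r values are descriptions over libraries that share groups and, within a library, depth.

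The change from ESC to BTAG cells was tested on the log2(RPM + 1) scale with limma over all genes, a gene being called at an adjusted p under 0.05 with a log2 difference of at least 1. On day 2, with both media averaged, none of the 6 genes was called, while 16% of the 10701 genes tested were. The number of genes at an unadjusted p under 0.05 was 3493, and edgeR on the recovered reads also called 0 of the 6. CER1 had the largest day 2 difference of the 6 at 3.37 ± 1.41 (SE, adjusted p = 0.0987), and its adjusted p was 0.0303 (4.52) with the title code as a covariate, 0.0397 (2.37) at a pseudocount of 10 RPM and 0.0336 (4.36) without reporter ESC library 2, but 0.282 (1.83) without reporter ESC library 3. FOXH1 was 0.90 ± 0.33 higher (adjusted p = 0.0556) and was called without aRB27 day 2 library 2 (1.17, adjusted p = 0.0196) or without reporter ESC library 3 (1.06, adjusted p = 0.0343), and without the latter LEFTY1 was called too, lower by 2.87 on the log2 scale (adjusted p = 0.0242). Median differences were 0.75 over the 6 genes and 0.053 over all genes. The 6 genes were chosen with earlier results of these data known, so these medians are a description only.

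Other pathway genes did change on day 2, 4 upwards and 2 downwards of the 21 tested among 32 listed, beside 16% of all genes (1124 up and 590 down of 10701). T (brachyury), a mesoderm transcription factor, rose from 0 to 6.04 RPM in reporter ESC to 231, 338 and 330 RPM on day 2, a log2 difference of 6.45 ± 0.54. T reached the 10 RPM of the filter only in induced cells, so its rise over ESC follows in part from how it entered the test. EOMES, a transcription factor of the primitive streak and a target of the pathway, rose to 138, 116 and 106 RPM (3.47 ± 0.78, adjusted p = 0.00303). FST (follistatin), a secreted antagonist of activin, fell from 143 to 319 RPM in ESC to 14.6, 16.6 and 42.3 RPM (−3.08 ± 0.41). TGIF1, a nuclear repressor of SMAD-dependent transcription, fell from 213 to 354 RPM to 46.7, 59.0 and 58.6 RPM (−2.28 ± 0.25). The ranges of ESC and day 2 libraries did not overlap for any of these 4 genes. They were named for the largest called differences, so this is a description only. With every library as labelled none of the 4 was called (adjusted p = 0.208, 0.136, 0.555 and 0.0730 in the order given). Of the 5 other ligands and convertases listed 0 were tested: GDF1, INHBA, INHBB and PCSK6 did not reach 10 RPM in 2 libraries, and FURIN was not matched in the monkey table. Of the 5 receptors and co-receptors listed 3 were tested and 0 were called in this comparison, and of the 3 SMAD transducers 3 and 0.

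On day 6 CER1 and LEFTY1 were lower than in ESC in both media, and TDGF1 was higher in aRB27. In aRB27, where 25.9% of genes were called, CER1 fell by 4.20 on the log2 scale (SE 1.36, adjusted p = 0.0204) and LEFTY1 by 3.19 (SE 1.00, adjusted p = 0.0169), and with TDGF1 3 of the 6 were called. In GK15, where 24.8% were called, CER1 fell by 4.61 (SE 1.54, adjusted p = 0.0282) and LEFTY1 by 3.19 (SE 1.13, adjusted p = 0.0378), 2 of the 6. Both decreases were called against ESC libraries that range down to 0 for both genes, so the groups overlap at 0. LEFTY1 was at 0 in all day 6 libraries, and CER1 in those of GK15. The ESC level and the pseudocount of 1 RPM therefore set the size of these differences. At a pseudocount of 0.1 RPM the GK15 LEFTY1 difference was −5.62 (limma, adjusted p = 0.0560). LEFTY1 passed the filter mainly through its ESC level, so a lower level in BTAG cells follows in part from how it entered the test. In aRB27 the CER1 call was lost without reporter ESC library 1 (−3.39, adjusted p = 0.0727) or 2 (−3.21, adjusted p = 0.0714) or without day 6 library 1 (−3.998, adjusted p = 0.0652) or 3 (−3.998, adjusted p = 0.0640), and the LEFTY1 call without reporter ESC library 1 (−2.82, adjusted p = 0.0528) or 4 (−2.68, adjusted p = 0.0566). In GK15 the CER1 call was lost without reporter ESC library 1 (−3.79, adjusted p = 0.0806), reporter ESC library 2 (−3.61, adjusted p = 0.0783) or either day 6 library (−4.61, adjusted p = 0.127 and 0.122).

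The GK15 LEFTY1 call on day 6 was lost without reporter ESC library 1 (−2.82, adjusted p = 0.0919), 2 (−2.998, adjusted p = 0.0736) or 4 (−2.68, adjusted p = 0.0975) or without either day 6 library (−3.19, adjusted p = 0.153 and 0.149). With no filter on low values, TDGF1, CER1 and LEFTY1 had adjusted p values of 0.0523, 0.106 and 0.0779 in aRB27, and CER1 and LEFTY1 of 0.130 and 0.132 in GK15. Within the title code MS134, CER1 was 131 and 190 RPM in ESC and 0 in the aRB27 and in the GK15 library of day 6. Within MS162 it was 0 and 12.9 RPM in ESC, 0 and 1.32 RPM in aRB27 and 0 in GK15, so the size of the CER1 decrease differed between the codes. LEFTY1 was 12.5 and 18.4 RPM in MS134 ESC and 0 and 25.3 RPM in MS162 ESC, against 0 in all day 6 libraries of either code. With every library taken as labelled, 1 of the 6 genes was called in aRB27, where 2079 of 10937 genes were called. In GK15 0 of the 6 and 0 of all genes were called.

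In GK15 on days 8 and 10 together, CER1 fell by 4.61 (SE 1.26, adjusted p = 0.00532) and LEFTY1 by 2.76 (SE 0.92, adjusted p = 0.0190), 2 of the 6 genes where 31.1% of all genes were called. GDF3 was 1.87 ± 0.77 higher with an adjusted p of 0.0525. It passed the threshold when any of 8 libraries was left out in turn, 5 of which belong to neither group, with differences of 1.87 to 2.56, and the difference was 1.18 (adjusted p = 0.258) without GK15 day 10 library 2 and 1.22 (adjusted p = 0.199) without reporter ESC library 3. The threshold was also passed at 2.29 (adjusted p = 0.0357) with the title code as a covariate. The LEFTY1 call was lost without GK15 day 10 library 1 (−2.34, adjusted p = 0.0782), reporter ESC library 1 (−2.40, adjusted p = 0.0624) or 4 (−2.25, adjusted p = 0.0699), with no filter (adjusted p = 0.0778) and with the title code as a covariate (−2.38, adjusted p = 0.0698). No library left out ended the CER1 call in this comparison. Every day 8 and day 10 library was at 0 for CER1, so the ESC level and the pseudocount set the size of the difference. All of them have the title code MS162, in which reporter ESC had 0 and 12.9 CER1 RPM, against 131 and 190 RPM in MS134. Omission of single libraries does not test the part of the code. LEFTY1 again passed the filter mainly through its ESC level, as on day 6.

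Along days 2 to 10 of BTAG cells, with medium as a covariate, CER1 fell by 1.21 per day on the log2 scale (SE 0.21, adjusted p = 0.000498, limma). It was called under all 15 omissions of 1 library, and it was the 1 gene called of the 5 tested, against 19.4% of 9826 genes. CER1 passed the filter of this fit only through libraries of day 2 and day 4, so its fall follows in part from how it entered the test. LEFTY1 did not pass the filter there. GDF3 had a slope of 0.31 ± 0.14 per day (adjusted p = 0.109), which was called without GK15 day 2 library 1 (0.52, adjusted p = 0.0256) and by edgeR on recovered reads (0.45, adjusted p = 0.0229) and was 0.14 (adjusted p = 0.404) without GK15 day 10 library 2. The slopes of NODAL (−0.17 ± 0.13), TDGF1 (−0.04 ± 0.05) and FOXH1 (−0.04 ± 0.04) were not called.

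Among the other pathway genes, differences were called in both directions. Of the 21 tested, 2 were higher and 3 lower than ESC in aRB27 on day 6, 1 and 3 in GK15 on day 6, and 2 and 5 in GK15 on days 8 and 10. Of 19 tested along the days, 0 rose and 7 fell. Over all genes 25.9%, 24.8%, 31.1% and 19.4% were called in these 4 comparisons, so the pathway genes in the first 3 were called at a share near or below that of all genes. FST fell to 0 to 0.85 RPM in aRB27 and to 0 and 0.83 RPM in GK15 on day 6 (−7.53 ± 0.39 and −7.39 ± 0.44), and T rose to 585 to 781 RPM and to 816 and 1133 RPM (7.56 ± 0.52 and 8.11 ± 0.59). On days 8 and 10 the difference of FST was −7.35 ± 0.36 and that of T 7.46 ± 0.48. T passed the filter only through induced cells, so its rise follows in part from how it entered the test. TGIF1 stayed lower than in ESC at each of these times (−1.94 ± 0.24, −2.49 ± 0.27 and −2.52 ± 0.22 in the same order). With every library as labelled, T, FST and TGIF1 were not called in GK15 on day 6 (adjusted p = 0.247, 0.173 and 0.224).

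HHEX, a transcription factor of anterior endoderm, rose to 5.92, 13.5 and 7.94 RPM in aRB27 on day 6 from at most 0.88 RPM in ESC (2.82 ± 0.66, limma, adjusted p = 0.00229), and by 0.86, under the threshold, at a pseudocount of 10 RPM. Its highest level was 13.5 RPM in aRB27 and 15.0 RPM in GK15 BTAG cells of days 2 to 6, and 0 in AG cells. It thus passed the filter through BTAG cells, so its rise follows in part from how it entered the test. LHX1, a transcription factor of the organizer region, was at 0 to 0.59 RPM in all 5 day 6 libraries against 0.44 to 11.3 RPM in ESC (−2.08 ± 0.68 in aRB27 and −2.30 ± 0.77 in GK15). Both LHX1 calls were lost without reporter ESC library 1 (−1.63, adjusted p = 0.0793 and −1.86, adjusted p = 0.0834) or 2 (−1.71, adjusted p = 0.0676 and −1.94, adjusted p = 0.0731). They were also lost without aRB27 day 6 library 1 or 4 (both −1.96, adjusted p = 0.0694 and 0.0594) and GK15 day 6 library 1 or 3 (both −2.30, adjusted p = 0.127 and 0.123) respectively, with no filter (adjusted p = 0.0819 and 0.0972), at a pseudocount of 10 RPM (−0.57 and −0.60) and as labelled (−1.67 and −0.84). The GK15 call was lost at a mean of 20 RPM too (adjusted p = 0.0574). EOMES fell by 0.71 per day along the series (SE 0.10, adjusted p = 0.000133). It went from 106 to 138 RPM on day 2 to 0 to 3.07 RPM on days 8 and 10, where its difference from ESC was −2.25 ± 0.70, which was not called without GK15 day 8 library 1 (−1.75, adjusted p = 0.0725), with the title code as a covariate (−1.71, adjusted p = 0.0674), at a pseudocount of 10 RPM (−0.94), with no filter or as labelled (adjusted p = 0.0652 in both). FOXA2, a target of the pathway, fell along the days by 0.43 (SE 0.10) per day, a slope not called as labelled (−0.24, adjusted p = 0.113), and FST by 0.61 (SE 0.13), the latter not called without GK15 day 2 library 1 (−0.47, adjusted p = 0.0607). FST passed the filter of that fit only through day 2 libraries, so its slope follows in part from how it entered the test.

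**Figure D2:**
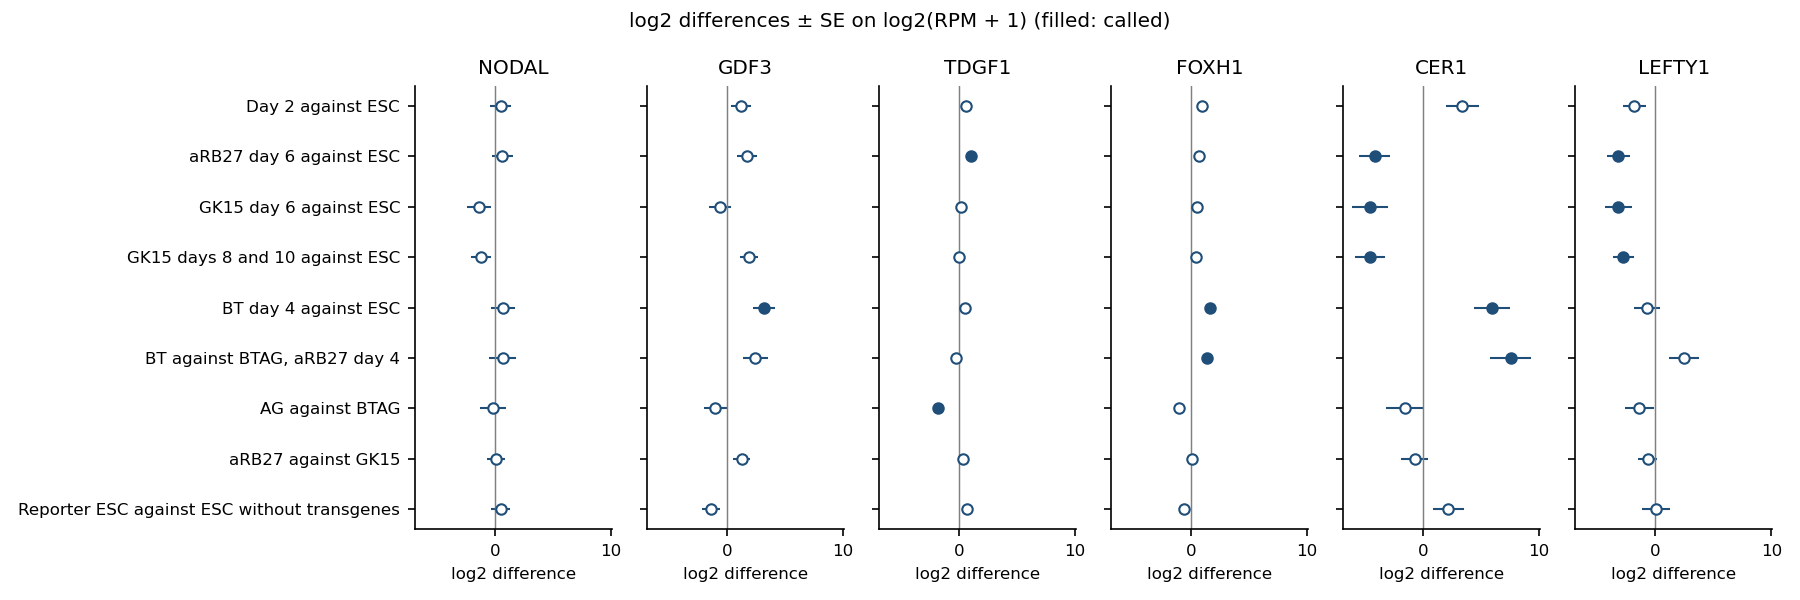
Differences of the 6 genes in 9 monkey comparisons (x axis, log2 difference on log2(RPM + 1), bars ± SE; y axis, comparison). Filled dots are called at an adjusted p under 0.05 and a log2 difference of at least 1. CER1 is lower than ESC from day 6 in BTAG cells and 5.93 higher in day 4 BT cells.

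Sorted cells with the PRDM1 reporter but not the TFAP2C reporter had a different level of several pathway genes on day 4. In the BT cells CER1 was 7.53 ± 1.78 higher than in BTAG cells of the same day and medium (log2, SE; limma, adjusted p = 0.00537), and with FOXH1 2 of the 6 genes were called, where 15.1% of all genes were. Against reporter ESC, where 14.3% of genes were called, 3 of the 6 were called and all were higher: CER1 (5.93 ± 1.54, adjusted p = 0.0103), GDF3 and FOXH1. The median difference of the 6 genes from BTAG cells was 1.91, against 0.0702 over all genes. It lies between FOXH1 and GDF3, and the GDF3 difference from BTAG cells, 2.44 ± 1.09, was not called. The 6 genes were chosen with earlier results of these data known, so this median is a description only. NODAL, TDGF1 and LEFTY1 were not called, with differences from BTAG cells of 0.67 ± 1.19, −0.27 ± 0.40 and 2.49 ± 1.31, and LEFTY1 was called without BT library 1 (4.99, adjusted p = 0.0113).

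Of the 8 listed targets of the pathway, 5 were higher and 1 lower in BT than in BTAG cells, and 6 were higher than in ESC. Over all 21 other pathway genes tested, 7 were higher and 1 lower than in BTAG cells, and 6 higher and 0 lower than in ESC. Of all genes 15.1% and 14.3% were called in these comparisons. No receptor or SMAD transducer was called in either, and GSC is counted in both. LHX1 was 489 and 658 RPM in the BT cells and 0.58 and 4.36 RPM in the BTAG cells (7.61 ± 0.89), and GSC, a transcription factor of the organizer, 70.2 and 106 RPM against 0 and 0 (6.45 ± 0.69). GSC passed the filter only through the 3 BT libraries, so its difference follows from how it entered the test. EOMES was 739 and 636 RPM against 12.1 and 67.3 RPM in BTAG cells and 0.88 to 20.2 RPM in ESC, and FOXA2, an endoderm transcription factor, 114 and 170 RPM against 0.88 to 7.35 RPM in ESC (5.09 ± 0.59). FOXA2 passed the filter only through induced cells, so its rise over ESC follows in part from how it entered the test. Against ESC the differences were 6.85 ± 0.77 for LHX1, 6.02 ± 0.85 for EOMES and 5.55 ± 0.60 for GSC. FST was 84.6 and 174 RPM in BT cells and 0.58 and 0.62 RPM in BTAG cells (6.26 ± 0.51), and in ESC it had 143 to 319 RPM. T ran the other way, with 61.7 and 11.2 RPM in BT cells and 514 and 377 RPM in BTAG cells, a log2 difference of −3.996 (SE 0.68), and the EOMES difference from BTAG cells, 4.52 ± 0.99, was not called without BTAG library 1 (3.33, adjusted p = 0.0755) or as labelled (adjusted p = 0.113). FST was not called against BTAG as labelled either (adjusted p = 0.0955).

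The endoderm marker sum of these BT cells, given above, was higher than in any BTAG library. The day 2 BT library had a larger sum still, with CER1 at 20.8 RPM, and the part of these markers in the CER1 level was not tested. The CER1 difference from BTAG cells rests on 2 libraries a side: its call was lost without BTAG library 1 (4.53, adjusted p = 0.152) or BT library 2 (6.86, adjusted p = 0.0550), with no filter (adjusted p = 0.0552) and with every library as labelled (adjusted p = 0.0603). Against ESC it was lost without BT library 2 (5.26, adjusted p = 0.133), with no filter (adjusted p = 0.0749), at a pseudocount of 0.1 RPM (6.79, adjusted p = 0.0675) and as labelled (6.16, adjusted p = 0.0585).

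**Figure D3:**
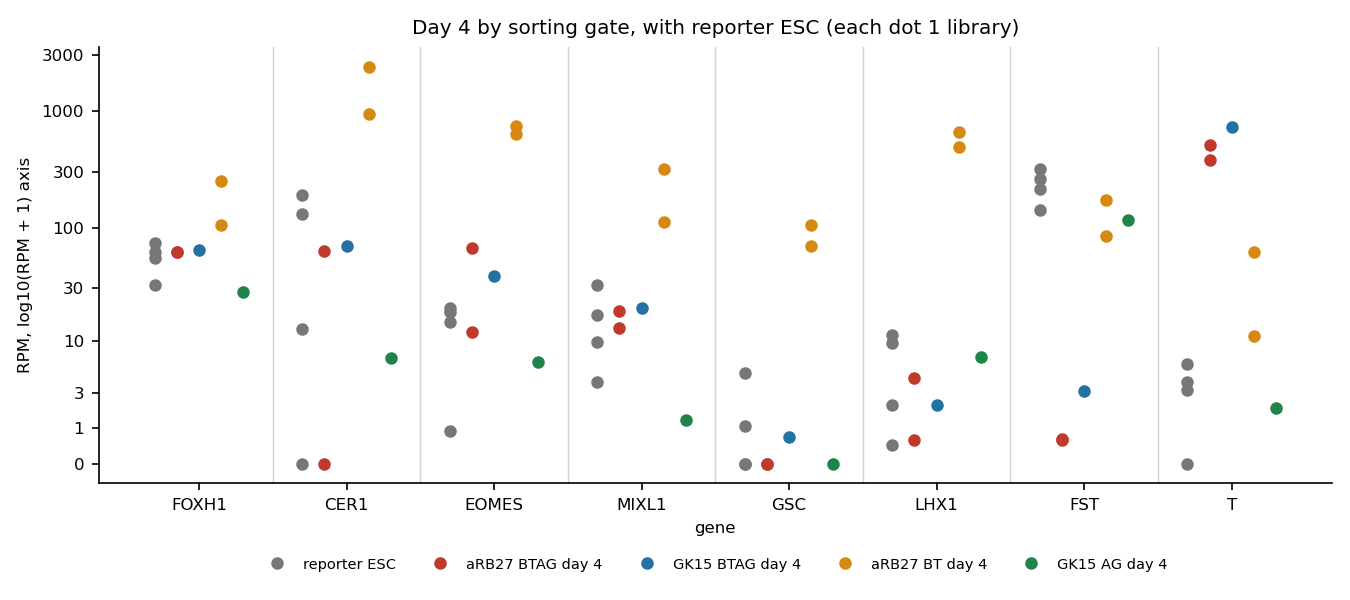
Levels of FOXH1, CER1 and 6 other pathway genes (x axis) in reporter ESC and in day 4 cells by gate and medium (dots, 1 library each, RPM on a log10(RPM + 1) axis). Both BT libraries lie above all reporter ESC and day 4 BTAG libraries for FOXH1, CER1, EOMES, MIXL1, GSC and LHX1, and below both aRB27 BTAG libraries for T.

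AG cells, with 1 library in each medium and on different days, were compared with BTAG cells of the same medium and day. TDGF1 was lower by 1.82 on the log2 scale (SE 0.38, adjusted p = 0.00243, limma), the 1 gene called of the 6, where 11.1% of all genes were called. This mean joins 260 RPM in the aRB27 AG library against 174 and 226 RPM in BTAG cells with 10.6 RPM in the GK15 AG library against 189 RPM, so the lower value was in the GK15 pair. In that pair the AG library has the title code MS134 and the BTAG library MS162, so gate and code cannot be told apart there. FOXH1 differed by −1.05 ± 0.39 (adjusted p = 0.0904) and was called without aRB27 day 2 BTAG library 2 (−1.32, adjusted p = 0.0315). CER1, NODAL, GDF3 and LEFTY1 were not called, with differences of −1.58 ± 1.67, −0.19 ± 1.11, −1.01 ± 1.02 and −1.37 ± 1.22. Of the 21 other pathway genes 3 were higher and 3 lower. T was 42.9 and 1.94 RPM in the AG libraries (−5.32 ± 0.64), FOXA2 was 0 in both (−4.43 ± 0.63), MIXL1 9.49 and 1.34 RPM (−2.70 ± 0.67), and FST 781 and 116 RPM against 14.6, 16.6 and 3.17 RPM in the BTAG libraries (5.19 ± 0.48). The AG libraries also carried the mesoderm and amnion marker sums given above, whose part in these differences was not tested, and as labelled 0 of the 6 and 0 of all genes were called.

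Between the 2 media none of the 6 genes was called over days 2, 4 and 6 (9 genes, 0.0841% of those tested, and 735 at an unadjusted p under 0.05). GDF3 had the largest difference, 1.26 ± 0.71 higher in aRB27 (adjusted p = 0.836), and CER1 one of −0.76 ± 1.16. edgeR also called 0 of the 6. On day 6 alone, a comparison chosen after seeing the data, 0.159% of genes were called, and again none of the 6. GDF3 was then 2.37 ± 1.00 higher in aRB27 (adjusted p = 0.533), NODAL 2.02 ± 1.09 higher (adjusted p = 0.681) and TDGF1 0.91 ± 0.37 higher (adjusted p = 0.502). All 3 aRB27 libraries of day 6 lay above both GK15 libraries for GDF3 and TDGF1, while for NODAL the aRB27 library at 2.65 RPM lay within the GK15 values of 1.81 and 4.16 RPM. Of the 21 other pathway genes 0 were called over days 2 to 6.

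ESC without transgenes came from several lines, and both CMK6 libraries share the title code MS116 while lines 656, 681F and 22 share MS173, so line and code cannot be told apart. Among ESC without transgenes, NODAL was 17.3 and 39.7 RPM in the 2 CMK6 libraries and 2.21, 1.09 and 2.33 RPM in lines 656, 681F and 22. GDF3 followed the same division, with 20.0 and 22.4 RPM in CMK6 and 3.44, 6.78 and 5.19 RPM in the others. CER1 was at most 20.4 RPM in the 5 libraries, with 0 and 2.53 RPM in CMK6. LEFTY1 was 14.6 and 108 RPM in CMK6 and 0.25, 7.60 and 2.08 RPM in the others. FOXH1 was 37.3 and 121 RPM in CMK6 and 86.1, 107 and 99.4 RPM in the others. Between the 4 reporter ESC and these 5 libraries 0 of the 6 genes were called, where 19 genes (0.2%) were called and 1270 had an unadjusted p under 0.05. CER1 had the largest difference, 2.15 ± 1.34 higher in reporter ESC (adjusted p = 0.503), and GDF3 was at −1.38 ± 0.75 (adjusted p = 0.444). edgeR called 0 of the 6 as well.

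A neighbour of LEFTY1 was above LEFTY1 in all 9 ESC libraries. In the RefSeq order of protein-coding genes on assembly T2T-MFA8v1.1, used for order alone, as no source names the build behind the monkey table, the entry of LEFTY1 (102143175) lies near LOC102144954. LOC102144954 was 149 and 130 RPM in CMK6 and 10.1, 49.4 and 5.19 RPM in lines 656, 681F and 22, and 29.9, 28.9, 0.44 and 26.9 RPM in reporter ESC. It was thus lowest in reporter ESC library 3, as LEFTY1 was. After induction it was at most 11.2 RPM in every library except the GK15 BTAG day 4 library, which had 103 RPM. LEFTY2 was not matched by symbol in the monkey table and its level is not analysed here.

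In mouse PGCLC the 2 Lefty genes were abundant and Cer1 was at 0, with germ cell genes present in all 4 libraries (Prdm1 108 to 156 RPM, Tfap2c 234 to 299 RPM). The 2 tables were normalized separately, so levels of the species are set side by side without a test. Nodal was 27.8 and 16.8 RPM on day 4 and 19.7 and 26.6 RPM on day 6, and Gdf3 was 103, 118, 110 and 119 RPM in the same order. Tdgf1 was 144, 91.5, 165 and 95.7 RPM, and Foxh1 134, 158, 86.5 and 136 RPM. Cer1 had 0 reads in 9.39 M over the 4 libraries, which allows up to 0.320 RPM.

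**Figure D4:**
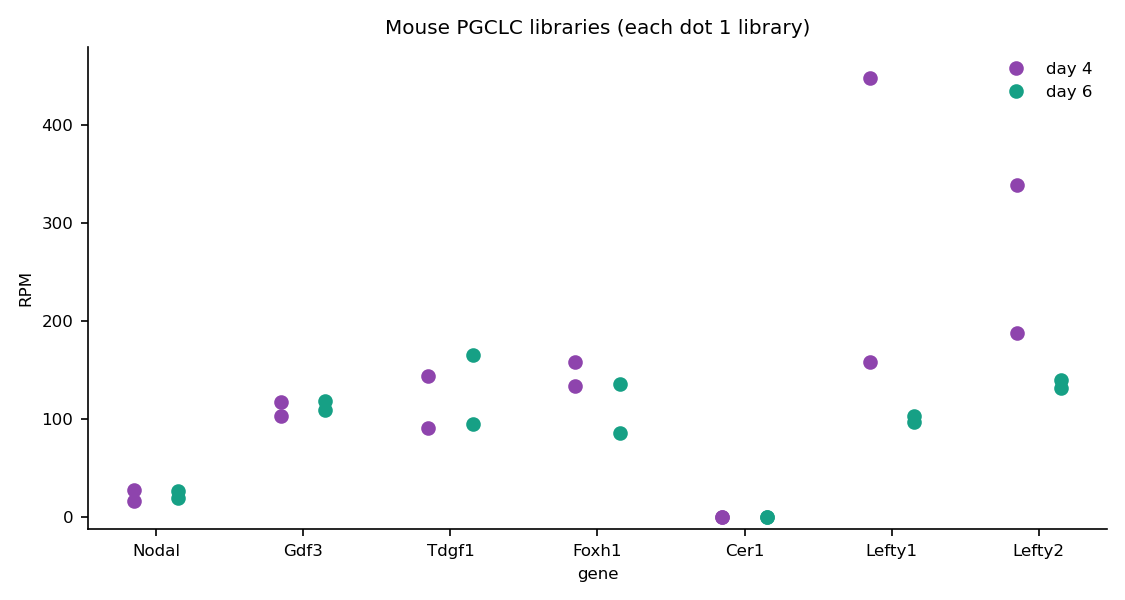
Levels of the mouse orthologs and Lefty2 (y axis, RPM, linear from 0) in 2 libraries of day 4 and 2 of day 6 (dots). Lefty1 spans 96.9 to 449 RPM and Lefty2 132 to 340 RPM, both with their highest value in day 4 library 1, and Cer1 is at 0 in all 4.

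Mouse Lefty1 fell between day 4 (449 and 158 RPM) and day 6 (103 and 96.9 RPM), by 1.41 on the log2 scale (SE 0.34, adjusted p = 0.0465, limma). It was the 1 gene called of the 5 tested, against 2.59% of 8255 genes. The call was lost without day 4 library 1 (−0.66, adjusted p = 0.123), without day 6 library 1 (−1.45, adjusted p = 0.490) or 2 (−1.36, adjusted p = 0.459). Without day 4 library 2 the difference was −2.15. The call was also lost with quantile normalization (−1.38, adjusted p = 0.0543) and with no filter (adjusted p = 0.355). Lefty2 had 340 and 188 RPM on day 4 and 140 and 132 RPM on day 6, a difference of −0.89 ± 0.22 with the same adjusted p of 0.0465, below the log2 threshold. The day 4 and day 6 ranges did not overlap for either gene, with 2 libraries a side and no count of such genes over the whole table. Of the 14 other pathway genes tested 0 rose and 2 fell, among them Tgif1 from 38.9 and 19.4 to 9.23 and 4.04 RPM (−1.99 ± 0.41, adjusted p = 0.0268). The Tgif1 call was lost without day 6 library 1 (−2.50, adjusted p = 0.415) or 2 (−1.48, adjusted p = 0.391) and with no filter (adjusted p = 0.329).

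Lefty1 and Lefty2 are related copies, and the labels do not say how reads that match both were counted. In GENCODE M21 (GRCm38) both genes lie on the plus strand of chromosome 1, Lefty2 before Lefty1. The coding sequences of the main transcripts are each 1107 bases long and 91.9% identical (1017 bases), and the sequences after the stop codon, 425 bases in Lefty1 and 1290 in Lefty2, are 67.8% identical over the 425 that align. The last 60 coding bases, where 53 are shared, are shown as an example of how close the coding parts are, and they lie upstream of the less similar ends that 3′ reads cover. Capitals mark the 7 bases that differ, and the last 3 bases are the stop codon.
Lefty1, chr1:180937916-180937975, plus strand: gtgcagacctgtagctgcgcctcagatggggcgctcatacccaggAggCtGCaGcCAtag
Lefty2, chr1:180897754-180897813, plus strand: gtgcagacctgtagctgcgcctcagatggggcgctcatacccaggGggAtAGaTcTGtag
How many reads the pair shares was not tested.

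The genes whose pattern over the 13 reporter group means was most like that of each member were named by Pearson r of log2(RPM + 1), as a description. For CER1 these were MTCL1 (0.93), FAM159B (0.92) and PCSK1 (0.91), and for GDF3 PLK3 (0.92), PML (0.87) and GUCY1A2 (0.87). TDGF1 was most like KDM6A (0.88), SKIL (0.87) and LZTS1 (0.83), of which SKIL is a nuclear inhibitor of SMAD signalling. FOXH1 was most like MIXL1 (0.87), a transcription factor of the primitive streak and one of the listed targets, PTPN9 (0.87) and PRR16 (0.86). NODAL was most like FAM20C (0.87), MOSPD2 (0.86) and WNT8A (0.86), and LEFTY1 like TBP (0.86), TMEM223 (0.86) and COIL (0.84). These are the highest r among 10701 genes over 13 means, several of them from groups of 1 library.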

How the data were processed

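The authors deposited 1 table per species with levels in RPM (reads of a gene per 1e6 reads of the library), made per the labels' protocols from 3′-end libraries. The submitters' processing notes name cutadapt 1.3, TopHat 1.4.1, Cufflinks 2.2.0 and GRCm38 but give no roles; for the monkey build, the sources used here give none. Low values are whole multiples of the RPM of 1 read (99.4% to 99.8% of values up to 100 steps, within 0.1 steps), which gave the reads and depths. The 96 mouse spike-in entries were left out. Among 703 pairs of monkey libraries 0 were identical.

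Genes reaching 10 RPM in 2 or more libraries of a fit were tested with limma 3.58.1 (R 4.3.3) on log2(RPM + 1) with an intensity trend, and p-values were adjusted over all of them (Benjamini-Hochberg). The 24 reporter libraries were fitted together by group, so lone libraries borrow their spread from the other groups. The day slope, the ESC lines and the mouse libraries were fitted alone. A slope was called from 1 per 8 days. The fits were tested on simulated data.

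The members, the lists of pathway genes and the libraries left out were chosen with earlier results of these data known. In each comparison the 6 members were named, with up to 4 other pathway genes past the threshold, PRDM1 and SOX17 for the labels, and the 3 genes most like each member. A few other genes (HHEX and TFAP2C, the mouse genes and the neighbour of LEFTY1) were named after their values were seen where the rule did not hold them. Of the 32 other pathway genes 30 were matched in monkey. Some results for single genes are not reported here. Alternatives were pseudocounts of 0.1 and 10 RPM, a mean filter of 20 RPM, no filter, quantile normalization, edgeR 4.0.16 on the recovered reads, all libraries as labelled, a term for the title code, and omission of single libraries. Day 6 alone for the media was chosen after seeing the data.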

Additional observations from a re-analysis of the deposited data

Results flagged for a closer look

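LEFTY1 in library 2 of the ESC without transgenes (line CMK6) was 107.89 RPM, far from the other 4 libraries of that group at 0.25 to 14.6 RPM: its gap to the nearest covered 0.867 of the range. This was the 1 such value among 12 sets of 4 or 5 libraries examined over the 6 genes, and chance alone marks about 1 set in 20. LOC102144954, an entry outside the 6 genes, was 103.0 RPM in the GK15 BTAG day 4 library, above the highest of the 4 reporter ESC libraries (29.9 RPM), and that group has no other library here.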

How the results depend on the processing

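No called difference of the 6 genes changed sign under any alternative run. Over settings that keep all libraries, 428 differences kept their side of the threshold, 27 lost the call, 5 gained it and 14 uncalled ones changed sign; with 1 library left out these counts were 1179, 34, 16 and 34. The number of the 6 genes called changed as follows, as a description, since the share over all genes is not given for each setting. A pseudocount of 0.1 RPM gave 1 for GK15 day 6 and 1 for BT against ESC, and one of 10 RPM gave 1 for day 2 and 1 for GK15 day 6. No filter gave 0 for day 6 in either medium, 1 for GK15 days 8 and 10, 0 for BT against BTAG, 1 for BT against ESC and 0 in mouse. A mean of 20 RPM gave 1 for GK15 day 6 and 1 for days 8 and 10, quantile normalization 0 in mouse, edgeR 2 for the day slope and the title code 1 for day 2. All libraries as labelled gave 1 for aRB27 day 6, 0 for GK15 day 6, 0 for BT against BTAG, 1 for BT against ESC and 0 for AG. The causes were not tested. Leaving out each library in turn gave 0 to 2 on day 2, 1 to 3 for aRB27 day 6, 0 to 2 for GK15 day 6, 2 to 3 for days 8 and 10, 1 to 2 for the slope, 0 to 2 for BT against BTAG, 1 to 3 for BT against ESC, 1 to 2 for AG, 0 to 1 in mouse, and 0 throughout for the media and the ESC lines.

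Over all genes, a pseudocount of 10 RPM called 1012 on day 2, 1622 and 1692 on day 6 (aRB27, GK15), 1959 on days 8 and 10, 1021 for BT against ESC, 22 for the media and 94 in mouse. A mean of 20 RPM, which tests fewer genes, called 963, 1538, 1464, 1804, 1186 (slope), 967 (BT against BTAG), 870 (BT against ESC), 696 (AG), 5 (media), 12 (ESC lines) and 130 (mouse). For the media a pseudocount of 0.1 RPM called 3, no filter 37, quantile normalization 5, edgeR 4, the title code 4, all libraries as labelled 1 and day 6 alone, chosen after seeing the data, 17. No filter called 0 in mouse. All libraries as labelled called 136 on day 2, 2079 for aRB27 day 6, 0 for GK15 day 6, 403 for BT against BTAG, 507 for BT against ESC and 0 for AG, each of 10937 tested. Leaving out 1 library gave 1558 to 1754 on day 2, 2554 to 2808 and 2042 to 2685 on day 6, 3233 to 3360 on days 8 and 10, 1367 to 2112 for the slope, 1101 to 1669 for BT against BTAG, 903 to 1562 for BT against ESC, 1039 to 1225 for AG, 3 to 18 for the media, 5 to 41 for the ESC lines and 0 to 195 in mouse.

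A library that is the only one of its group could not be left out of a comparison that uses that group. No paired analysis was possible because the labels give no replicate number that groups share, and the numbers here follow accession order. NODAL, GDF3 and LEFTY1 often rest on few reads, since 1 read stood for up to 0.929 RPM, so differences among their low values were not detectable at this depth.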
